A study of Mus musculus with 28 samples.

Results

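The genes described here carry out MHC class I antigen presentation: the classical heavy chains *H2-K1* and *H2-D1*, their light chain *B2m*, the peptide transporter genes *Tap1* and *Tap2*, the loading factor *Tapbp*, the immunoproteasome subunits *Psmb8*, *Psmb9* and *Psmb10*, and the transcriptional regulator *Nlrc5*. They were chosen by symbol as a pathway, with earlier results of these data known, and all 10 were found among the 53801 features of the expression table, which lists the heavy chains as H2.K1 and H2.D1. RNA was sequenced from Treg cells sorted as TCR+CD4+CD25hi CD127lo, with TCR+CD8+ cells discarded, from the spleen or the tumor of mice with GBM grown from CT2A, a mouse cell line implanted in the forebrain. The mice received an IgG control, called IgG2a in the study's text, or αPD1 + αGITR (250 µg per mouse, 4 treatments every 3 days), and tissue was taken 2 days after the last dose. Values were used from 15 splenic libraries, 7 given IgG2a and 8 given αPD1 + αGITR, and from 12 GBM libraries, 5 given IgG2a and 7 given αPD1 + αGITR. Of the 9 treated spleens described, 1 was not used here, because 1 column of the table carries no name and was not assigned. The series design says that each spleen or tumor came from a different mouse. Library names carry a number, which several libraries of a group can share, as do 4 of the 7 splenic IgG2a libraries (spleen_79_a to spleen_79_d) and 3 treated spleens (spleen_70_a to spleen_70_c). What the number stands for is not given in the sources used here. The study's figure legend gives 5 IgG2a and 7 αPD1 + αGITR animals for the RNA-seq, fewer than the 7 and 9 spleens described. Whether some splenic libraries come from the same mouse thus cannot be told. The standard errors and p-values treat each library as an independent mouse. The study's methods name C57BL/6 mice of both sexes for its tumor models without giving the age, all tumors come from 1 cell line, and no group received either antibody alone, so effects of αPD1 and of αGITR cannot be told apart.

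Class I molecules display short peptides from inside the cell to CD8 T cells. Peptides are cut by the proteasome, whose catalytic subunits can be replaced by the interferon-inducible immunoproteasome subunits, carried into the endoplasmic reticulum by the TAP transporter, and loaded with the help of tapasin onto a heavy chain paired with β2-microglobulin. NLRC5 is a transactivator that acts at class I promoters, and the pathway is known for its induction by interferons and for its high level in lymphocytes.

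Levels are given as TPM, transcript abundances scaled per transcript length and to a fixed total in each library, so that genes can be compared within a library. The sequencing depth is unknown, and the spread between libraries is the measure of precision. The 10 most abundant features took 31.9% to 78.3% of the TPM of a library. *Foxp3*, which defines Treg cells, was detected in all 27 libraries, at 21.5 to 440.4 TPM. The summed level of 5 T cell genes (*Cd3d*, *Cd3e*, *Cd3g*, *Cd4* and *Trac*) ranged from 141 to 1664 TPM in splenic IgG2a libraries, 179 to 1677 in treated spleen, 852 to 2077 in GBM IgG2a libraries and 1109 to 2489 in treated GBM. It was below 200 TPM in 4 splenic libraries (spleen_79_a and spleen_79_d after IgG2a, spleen_70_a and spleen_72_b after αPD1 + αGITR). The sum of 11 macrophage and microglia genes reached 4899 TPM in 1 GBM IgG2a library (tumor_79_a) and 1876 TPM in 1 treated GBM library (tumor_73_a), against at most 284 TPM in any spleen. The sum of 5 erythroid genes reached 28398 TPM in treated spleen and at most 2371 TPM in GBM. The sum of 3 NK cell genes was at most 3.76 TPM in GBM, 14.41 TPM in treated spleen (spleen_74_a) and 1.66 TPM in IgG2a spleen. In that list *Ncr1* did not exceed 2.28 TPM and *Klrb1c* reached 11.9 TPM. The sum of 5 B cell genes reached 954 TPM in spleen (spleen_79_b) and 436 TPM in GBM (tumor_369_a). Of these genes, *Ighm* reached 894 TPM in splenic IgG2a libraries. The sum of 4 MHC class II genes reached 774 TPM in spleen (spleen_77_a) and 207 TPM in GBM (tumor_79_a). In bulk samples such as these, fewer T cells among the sorted cells and less of a transcript per cell cannot be told apart.

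After αPD1 + αGITR, 9 of the 10 genes were higher in GBM than in splenic Treg cells at an adjusted p under 0.05 (limma, Benjamini-Hochberg over all features tested), beside 15.8% of the 7506 features tested. The exception was *Nlrc5*, with an adjusted p of 0.0562. Log2 differences on the log2(TPM + 1) scale ran from 1.44 for *Nlrc5* to 2.37 for *Psmb9*, with a median of 1.97, where the median over all features tested was 0.95. In 7 of the 10 genes (*H2-D1*, *Tap1*, *Tap2*, *Tapbp*, *Psmb8*, *Psmb9* and *Psmb10*) the lowest GBM library exceeded the highest spleen, beside 2.96% of all features. By the study's threshold of over 2-fold and p under 0.05, read here as p before adjustment, all 10 were called, beside 33.9%. The count at an adjusted p under 0.05 was 3 with TMM-type scaling (beside 3.49% of features higher), 4 with libraries of the same label number averaged (beside 3.27%), and 2 with no filter on low values (beside 0.572% of 42667 features). When every library was instead scaled to its summed T cell genes, a scaling chosen after the data were seen, 0 of the 10 were called by either rule, beside 0.759% of features higher at an adjusted p under 0.05 and 2.07% by the study's threshold. Under it the members' median difference was 0.38, that of all features was -0.84, and *Nlrc5* turned to -0.13. Over 14 alternatives with no single library left out, the call at an adjusted p under 0.05 was lost in 6 for *B2m*, in 5 for *H2-K1* and *Psmb9*, in 4 for *Tap2* and *Tapbp*, in 3 for *Psmb8* and in 2 for *H2-D1*, *Tap1* and *Psmb10*.

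The same comparison after IgG2a gave positive differences for all 10 genes under TPM scaling, with a median of 1.38 against 0.48 over the 7380 features tested. The members' median was 0.67 with averaged label numbers, 9 of 10 being positive, where that of all features was 0.08. Without the splenic libraries of low T cell sum these medians were 0.57 and 0.05. Under scaling to T cell genes 5 of the 10 turned negative, with medians of 0.06 for the members and -0.85 for all features. The members' excess over all features was 0.91 there and 0.90 under TPM scaling. At an adjusted p under 0.05, 0 of the 10 were called, beside 0.488% of the features, and 3 (*B2m*, *Tap1* and *Psmb9*) passed the study's threshold, beside 7.63%. In *Tap1* alone the lowest GBM library exceeded the highest spleen, beside 1.25%. The number past the study's threshold rested on single splenic IgG2a libraries: it was 1 without spleen_79_a or without spleen_79_c, 6 without spleen_76_a and 5 without spleen_79_b, beside 5.88%, 6.19%, 8.41% and 10.9% of all features. GBM groups of both treatments are compared with spleens that also enter the treatment comparisons below, so the comparisons share libraries.

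Within the GBM, the difference between αPD1 + αGITR and IgG2a was positive for 9 of the 10 genes, with a median of 0.66, but the median over all 7848 features tested was also positive, at 0.62. Without tumor_369_a, which had 7702 features above 1 TPM against 11365 to 16611 in the other IgG2a GBM libraries, the median of all features was 0.36, that of the members 0.66, and all 10 were positive. No member had an adjusted p under 0.05 in limma, and neither did any other feature (0%), although 1749 features had an unadjusted p under 0.05. *Tap2* and *Psmb8* passed the study's threshold, 2 of 10 beside 16.8% of all features in that direction. *Tap2* and *Tapbp* had all 7 treated libraries above all 5 IgG2a libraries, 2 of 10 beside 1.77%. With TMM-type scaling, which shifts the median of all features to 0.05, the members' median was -0.03 and 4 of the 10 stayed positive (*Tap2*, *Tapbp*, *Psmb8* and *Psmb10*). The count past the study's threshold was 1 without any single one of the IgG2a libraries tumor_369_a, tumor_76_a or tumor_79_a, or of the treated libraries tumor_70_b, tumor_73_a or tumor_74_a, beside 10.9% to 20.9% of all features.

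In the spleen, the differences between αPD1 + αGITR and IgG2a had a median of 0.15 for the members and 0.15 over the 6634 features tested, and ranged from -0.22 (*Psmb10*) to 0.77 (*B2m*). The sign of the members' median was not stable: it ran from -0.26 without spleen_79_a to 0.38 without spleen_76_a, and was -0.22 with library weights and -0.19 with averaged label numbers. At an adjusted p under 0.05, 0 members and 0 features (0%) were called by limma, 168 features having an unadjusted p under 0.05. By the study's threshold 0 members were called, beside 1.49% of features. The standard errors of the members, 0.62 to 0.85, were larger than most of these differences, so that differences of this size were not detectable with these libraries. The interaction of tissue and treatment, which asks whether the response differed between GBM and spleen, was positive for 9 of 10 genes with a median of 0.58 against 0.45 for the 8687 features tested, from -0.99 for *B2m* to 1.11 for *Tap2*. The members' median was 0.31 without spleen_72_b and 0.91 without spleen_79_a, the lowest and highest with 1 library left out, and 0.074 with TMM-type scaling. None of the members had an adjusted p under 0.05 (lowest 0.620) and none passed the study's threshold, beside 0% and 6.8% of features. A larger response in GBM than in spleen was therefore not shown for any of the 10 genes.

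**Figure D1:**
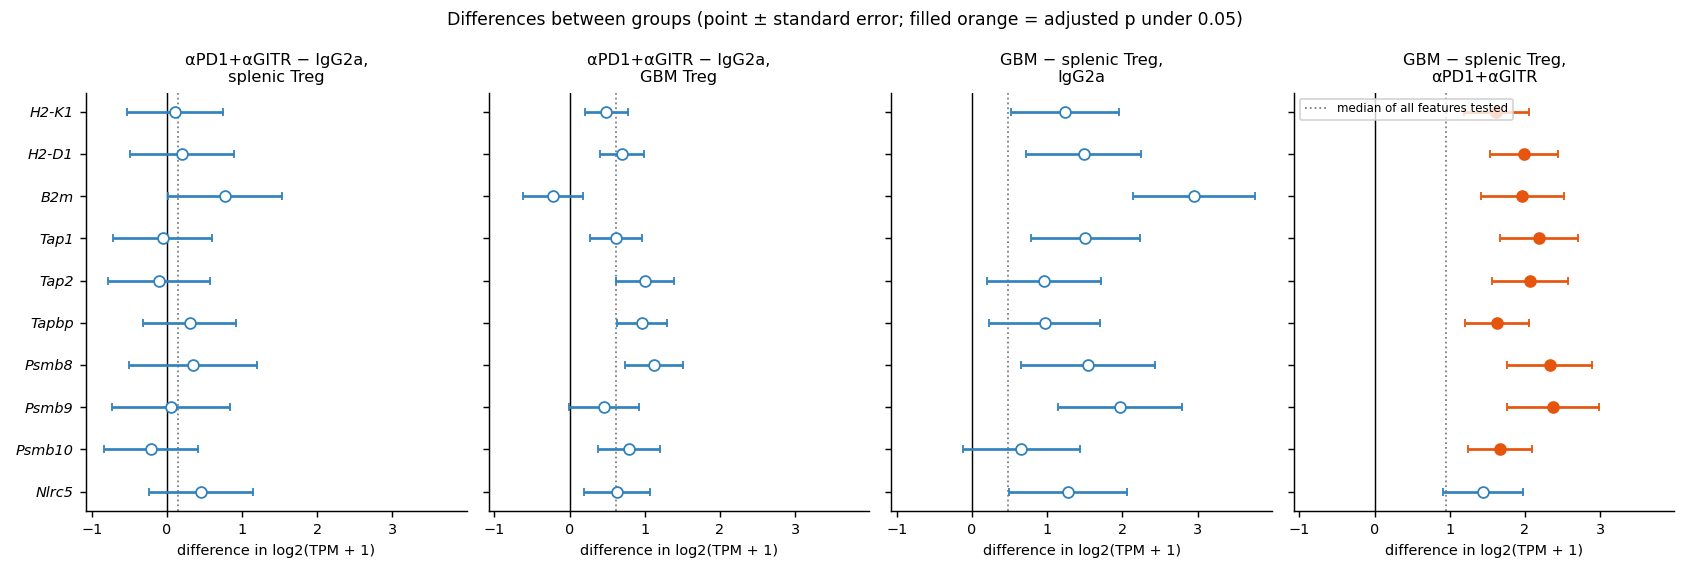
Log2 differences of the 10 genes on the log2(TPM + 1) scale in the 4 comparisons, with 1 point for each gene and bars of 1 standard error from limma. Each panel marks the median over all features tested. The points of the treated GBM against treated spleen lie at 1.44 to 2.37, all to the right of the median of 0.95 of all features, and those of the splenic treatment comparison lie around 0.

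*H2-K1* and *H2-D1* encode the classical class I heavy chains that bind the peptide. *H2-K1* lies at chr17:33996017-34000347 on the minus strand and *H2-D1* at chr17:35262730-35267499 on the plus strand (GRCm38). A block of their promoters is set side by side because *H2-K1* and *H2-D1* had the highest correlation across libraries of all pairs of members, and the *B2m* promoter is shown because *B2m* encodes their common light chain. The 250 bases before the *H2-K1* start (RefSeq, GRCm38.p6, chr17:34000348-34000597, minus strand) and the 249 bases before the *B2m* start (chr2:122147437-122147685, plus strand) read as follows, 5′ to 3′. Capitals mark matches, on either strand, to 4 motifs: a kappa B site, an IRF core (AANNGAAA), the X2 core (TGACG) and the Y box (CCAAT). The kappa B capitals of *H2-K1* and *H2-D1* each hold a pair of matches that overlap, and the other marked matches do not overlap.
H2-K1 promoter: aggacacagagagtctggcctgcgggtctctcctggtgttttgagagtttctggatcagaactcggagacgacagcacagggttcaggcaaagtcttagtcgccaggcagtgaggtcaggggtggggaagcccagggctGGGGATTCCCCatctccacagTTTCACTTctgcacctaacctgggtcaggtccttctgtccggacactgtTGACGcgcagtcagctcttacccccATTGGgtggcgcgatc
B2m promoter: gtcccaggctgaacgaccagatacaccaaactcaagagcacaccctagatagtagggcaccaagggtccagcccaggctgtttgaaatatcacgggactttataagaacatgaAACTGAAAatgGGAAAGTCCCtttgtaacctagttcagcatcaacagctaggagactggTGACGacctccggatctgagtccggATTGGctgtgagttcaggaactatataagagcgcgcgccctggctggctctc
Of the H2-D1 window, counted from the RefSeq start, only the block around the first pair of motifs is printed (chr17:35262923-35262952, plus strand). It lies inside the GENCODE gene model given above, which starts upstream of the RefSeq start. It stands beside the same block of H2-K1 (chr17:34000429-34000458, minus strand).
H2-K1 block: GGGGATTCCCCatctccacagTTTCACTTc
H2-D1 block: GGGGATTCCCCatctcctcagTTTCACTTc

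The 30 bases of the blocks differ by 1 substitution, A18T, counted from the 5′ end with the *H2-K1* base first. Over the whole window of 250 bases *H2-K1* and *H2-D1* were 69.6% identical, against 52.8% to 62.4% in the other 27 pairs of members. RefSeq windows were matched for 8 of the 10 members, all but *Tap2* and *Nlrc5*. The X2 core and the Y box belong to the composite element through which NLRC5 is known to act. The Y box was found in 6 of the 8 (*H2-K1*, *H2-D1*, *B2m*, *Tap1*, *Tapbp* and *Psmb9*) and in 33.8% of all 32851 promoter windows, and the X2 core in 5 (*H2-K1*, *H2-D1*, *B2m*, *Tap1* and *Psmb9*) and in 17.8% of windows. The X2 core of *H2-K1*, *H2-D1* and *B2m* began 41, 101 and 78 bases before the start. A Y box followed at 16, 76 and 53 bases. In *Tap1* the Y box, at 222, lay upstream of the X2 core, at 86. In *Psmb9* the X2 core was at 144 and the Y box at 8. These counts are of separate matches and do not show that a window holds the composite element. The IRF core was found in 3 (*H2-K1*, *H2-D1* and *B2m*) beside 21.3% of windows, and the kappa B motif in the same 3 beside 7.25%. A match of the interferon gamma activated site (TTCNNNGAA, in 7.02% of windows) was found in *Psmb8* alone, and *Psmb10* held no match to any of the 5 motifs. These are matches of letters in a window and not measured binding.

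*H2-K1* was at 3269, 3632, 2103, 2336 and 2449 TPM in the GBM IgG2a libraries tumor_369_a, tumor_76_a, tumor_77_a, tumor_78_a and tumor_79_a, and at 2224 to 5495 TPM (median 4655) in treated GBM. In splenic Treg cells it was at 364 to 2692 TPM (median 1602) after IgG2a and 402 to 2705 TPM (median 1226) after αPD1 + αGITR. No GBM library was thus below 2103 TPM, the lowest splenic values were those of the 4 libraries with low T cell sums, and *H2-K1* ranked 8 to 13 among all features in treated GBM. Treated GBM exceeded treated spleen by 1.62 on the log2 scale (SE 0.43, 3.07-fold, adjusted p = 0.0173, 5 of 7 libraries above every spleen). Treated GBM differed from GBM IgG2a by 0.49 (SE 0.29, adjusted p = 0.310), which is within the spread of the libraries, and by -0.21 with TMM-type scaling.

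*H2-D1* was at 1153, 2747, 1987, 1759.9 and 1669 TPM in the same order of GBM IgG2a libraries and at 1779 to 3837 TPM (median 3168) in treated GBM. Splenic levels were 127 to 1823 TPM (median 1165) after IgG2a and 277 to 1762 TPM (median 758) after αPD1 + αGITR. Treated GBM and treated spleen did not overlap, although their nearest libraries, at 1779 and 1762 TPM, were close. The difference was 1.98 (SE 0.45, 3.95-fold, adjusted p = 0.00726). Within the GBM, treated libraries exceeded IgG2a by 0.70 (SE 0.29), with 4 of 7 above every IgG2a library, an unadjusted p of 0.0253 by an exact permutation test and an adjusted p of 0.180, and with TMM-type scaling this difference was 0.00 (-0.00031). *H2-K1* stood above *H2-D1* in every library of treated GBM (7 of 7) and of both splenic groups (7 of 7 and 8 of 8). The transcripts share 109 stretches of 50 bases, 5.43% of those of *H2-K1* and 4.79% of those of *H2-D1*, and in all 13.9% of *H2-D1* stretches also occur in 1 or more of 103 other genes, so reads from such stretches may have been divided between genes. The read length is not given in the sources used here.

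*B2m* encodes β2-microglobulin, the light chain with which the heavy chains pair, and lies at chr2:122147686-122153083 on the plus strand. It was at 4004, 2422, 946, 1395 and 3733 TPM in GBM IgG2a libraries tumor_369_a, tumor_76_a, tumor_77_a, tumor_78_a and tumor_79_a, and at 1044 to 3312 TPM (median 2212) in treated GBM. In spleen it was at 47.2 to 1167 TPM (median 307) after IgG2a and 129 to 1749.7 TPM (median 599) after αPD1 + αGITR. It was the only member with a lower mean in treated than in IgG2a GBM (log2 difference -0.22, SE 0.40, adjusted p = 0.745), and this sign rested on tumor_369_a and tumor_79_a: without both libraries the difference was 0.34. These were also the GBM IgG2a libraries with the highest *B2m*, and tumor_79_a held the highest macrophage sum, whose part in this value was not tested.

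Between tissues, *B2m* had the largest difference of the members after IgG2a, at 2.95 (SE 0.81, 7.74-fold), with an adjusted p of 0.0856. Without spleen_79_b the adjusted p was 0.0266 and the difference 3.30. With each of the 12 libraries left out in turn, the adjusted p ran from 0.0266 to 0.224. After αPD1 + αGITR the difference was 1.97 (SE 0.55, 3.904-fold, adjusted p = 0.0217), which without tumor_70_b was 1.83 with an adjusted p of 0.0548. The groups overlapped in both cases, with 4 of 5 and 4 of 7 GBM libraries above every spleen.

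The log2 ratio of summed heavy chains to *B2m* was 0.14, 1.397, 2.11, 1.55 and 0.14 in the GBM IgG2a libraries tumor_369_a, tumor_76_a, tumor_77_a, tumor_78_a and tumor_79_a, and 1.63 to 3.38 (median 2.65) in splenic IgG2a libraries. Being a ratio within a library, it depends on the scaling only through the 1 TPM added to both terms. It was lower by a mean of 1.62 in GBM, with 4 of 5 libraries below every spleen (exact permutation p = 0.00505, adjusted p = 0.0808 over the 16 ratio tests). The adjusted p was 0.0346 without spleen_79_b and 0.0485 without tumor_77_a. With each of the 12 libraries left out in turn, the adjusted p ran from 0.0346 to 0.0970. After αPD1 + αGITR the ratio was 1.85 ± 0.51 (SD, n = 7) in GBM and 2.05 ± 0.80 (SD, n = 8) in spleen, a difference within the spread. A change in the balance of heavy and light chain transcripts between the tissues was thus not established.

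**Figure D2:**
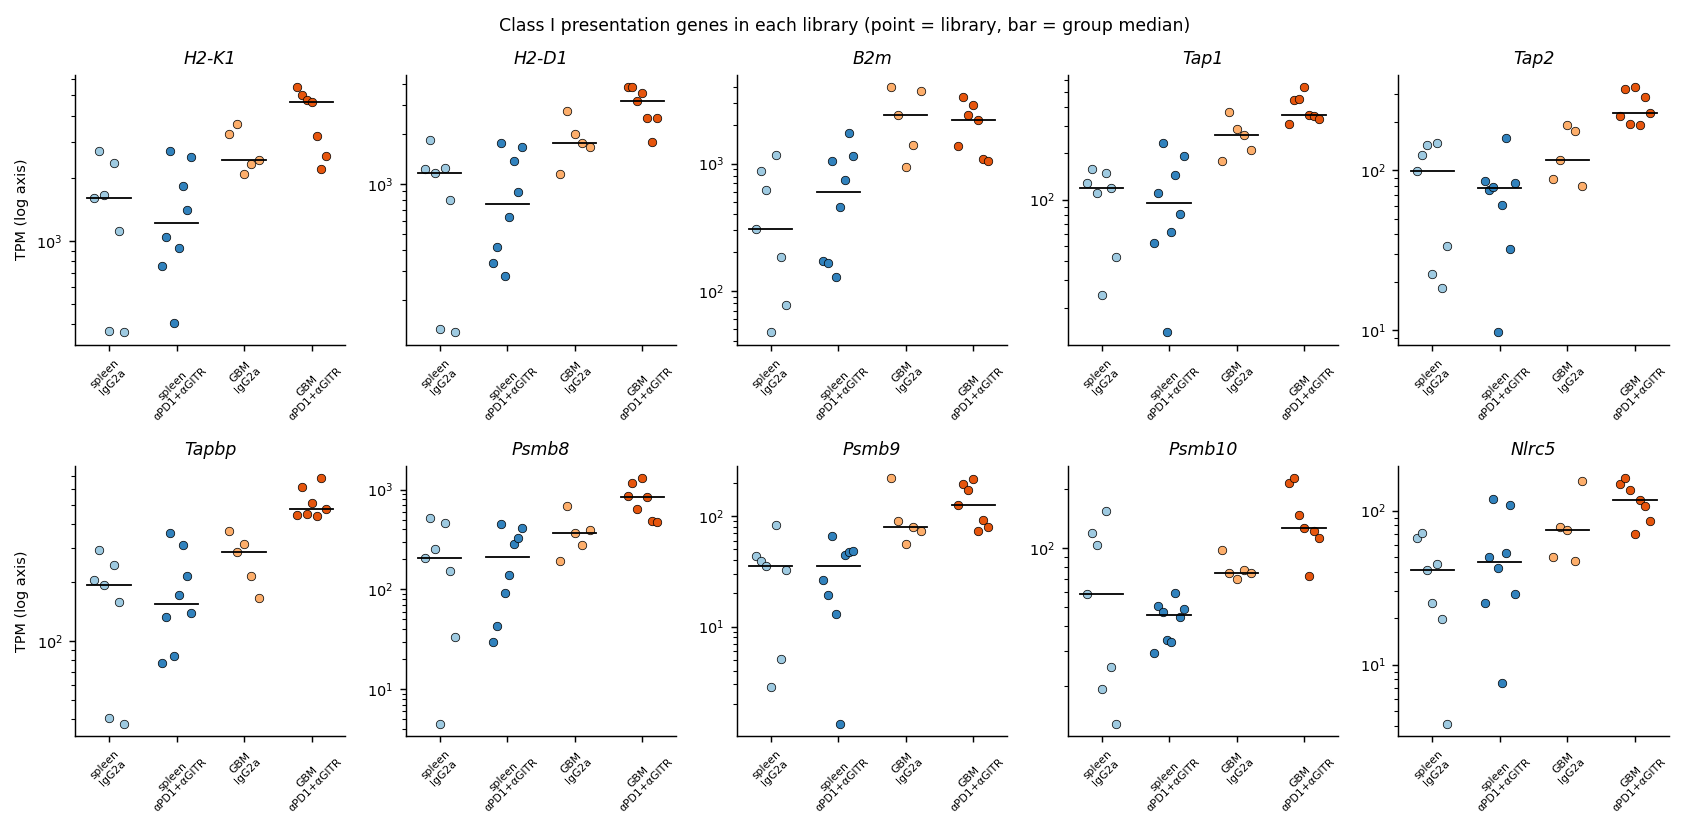
Levels of the 10 genes in each of the 27 libraries, as TPM on a log axis, by group, with 1 point for each library and a bar at the group median. The 7 treated GBM libraries of *Tapbp* lie between 439 and 683 TPM, above all IgG2a GBM libraries, and those of *B2m* lie between 1044 and 3312 TPM, within the range of the IgG2a GBM libraries.

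*Tap1* and *Tap2* encode the subunits of the transporter that moves peptides into the endoplasmic reticulum. With *Psmb9* and *Psmb8* they form a cluster within the class II region of the MHC, from chr17:34181987 to chr17:34216321, in which *Tap1* and *Psmb9* share 212 exonic bases (3.87% of *Tap1* and 5.79% of *Psmb9*). *Tap1* was at 178, 370, 288, 263 and 208 TPM in GBM IgG2a libraries tumor_369_a, tumor_76_a, tumor_77_a, tumor_78_a and tumor_79_a and at 309 to 539 TPM (median 355) in treated GBM. In spleen it was at 24.2 to 159 TPM (median 119) after IgG2a and 13.8 to 233 TPM (median 95.3) after αPD1 + αGITR. *Tap1* thus stood apart between the tissues under both treatments. The log2 difference was 1.51 after IgG2a (SE 0.72, exact permutation p = 0.00631, adjusted p = 0.487 in limma) and 2.19 after αPD1 + αGITR (SE 0.51, 4.55-fold, adjusted p = 0.00848). Without the 4 splenic libraries of low T cell sum the latter was 1.65 with an adjusted p of 0.0162. Within the GBM, 3 of 7 treated values exceeded all IgG2a values (0.62, SE 0.34, exact permutation p = 0.0126, adjusted p = 0.279), and TMM-type scaling gave -0.08.

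*Tap2* was at 88.9, 117, 192.7, 177 and 79.5 TPM in GBM IgG2a libraries tumor_369_a, tumor_76_a, tumor_77_a, tumor_78_a and tumor_79_a, and at 193.4 to 333 TPM (median 228) in treated GBM. The groups did not overlap, but the lowest treated library (tumor_73_b, 193.4 TPM) and the highest IgG2a library (tumor_77_a, 192.7 TPM) were almost equal. The difference was 1.01 on the log2 scale (SE 0.39, 2.01-fold), the exact permutation p was 0.00126, the smallest that 7 libraries against 5 can give, and the adjusted p in limma was 0.161. With TMM-type scaling the difference was 0.31. In spleen *Tap2* was at 18.4 to 148 TPM (median 99.3) after IgG2a and 9.71 to 160 TPM (median 77.1) after treatment, with a difference of -0.10 (SE 0.68). All treated GBM libraries lay above all treated spleens, by 2.07 (SE 0.51, 4.19-fold, adjusted p = 0.0107), while after IgG2a only 2 of 5 did so (0.96, SE 0.76, adjusted p = 0.669). Of its exonic bases 18.5% overlap another gene model.

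*Tapbp* encodes tapasin, which holds empty class I molecules at the transporter, and lies at chr17:33915899-33929292 on the plus strand. It was at 367, 285, 316, 217 and 166 TPM in GBM IgG2a libraries tumor_369_a, tumor_76_a, tumor_77_a, tumor_78_a and tumor_79_a and at 439 to 683 TPM (median 477) in treated GBM. Of the members, *Tapbp* had the smallest spread in treated GBM on the log2 scale (SD 0.25, n = 7), and its lowest treated library (tumor_73_b, 439 TPM) stood clear of the highest IgG2a library (tumor_369_a, 367 TPM). The difference was 0.97 (SE 0.34, 1.95-fold, exact permutation p = 0.00126, adjusted p = 0.140). Under the 13 alternative ways of processing it ran from 0.27 with TMM-type scaling to 0.99, and its adjusted p was under 0.05 in 1 of them (0.0457, with limma's library weights). Splenic levels were 37.9 to 294 TPM (median 195) after IgG2a and 77.6 to 357 TPM (median 156) after treatment. Treated GBM exceeded treated spleen by 1.63 (SE 0.42, 3.10-fold, adjusted p = 0.0153) without overlap. Of its exonic bases 29% overlap another gene model.

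*Psmb8*, *Psmb9* and *Psmb10* encode the catalytic subunits of the immunoproteasome, which take the places of *Psmb5*, *Psmb6* and *Psmb7*. *Psmb8*, at chr17:34197721-34201454 on the plus strand, was the most abundant of the 3 in the median of every group. It was at 192, 679.9, 369.1, 281 and 395 TPM in GBM IgG2a libraries tumor_369_a, tumor_76_a, tumor_77_a, tumor_78_a and tumor_79_a and at 471 to 1304 TPM (median 839) in treated GBM. In spleen it ranged from 4.52 to 524 TPM (median 207) after IgG2a, a 116-fold span set by the low library spleen_79_a, and from 29.5 to 454 TPM (median 212) after αPD1 + αGITR. *Psmb8* had the largest difference of the members between treated and IgG2a GBM, at 1.13 (SE 0.38, 2.18-fold), with 4 of 7 treated libraries above every IgG2a library, an exact permutation p of 0.0139 and an adjusted p of 0.134. With TMM-type scaling it was 0.43, and without tumor_369_a and tumor_79_a it was 0.89, below the 0.92 of *Tapbp*. Treated GBM exceeded treated spleen by 2.33 (SE 0.56, 5.02-fold, adjusted p = 0.0102) without overlap, 471 against 454 TPM at the nearest libraries.

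*Psmb9* (chr17:34181987-34187764, minus strand) was at 222, 90.0, 56.0, 80.5 and 73.05 TPM in GBM IgG2a libraries tumor_369_a, tumor_76_a, tumor_77_a, tumor_78_a and tumor_79_a and at 73.5 to 220 TPM (median 127) in treated GBM. It was at 2.83 to 83.3 TPM (median 35.5) in splenic IgG2a libraries and at 1.32 to 66.5 TPM (median 35.5) in treated spleen. The GBM groups overlapped (0.46, SE 0.47, adjusted p = 0.539). Without tumor_369_a, the IgG2a library at 222 TPM, the difference was 0.77, and without tumor_77_a it was 0.28. Every treated GBM library lay above every treated spleen, and the difference of 2.37 (SE 0.61, 5.19-fold, adjusted p = 0.0142) was the largest of the members in this comparison with all libraries. Without spleen_72_c, the lowest treated spleen, it was 1.89 and below that of *Psmb8*. After IgG2a it was 1.97 (SE 0.83, 3.91-fold, exact permutation p = 0.0227, adjusted p = 0.410), with 2 of 5 GBM libraries above every spleen.

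*Psmb10* (chr8:105935735-105938444, minus strand) was at 98.1, 74.9, 69.6, 77.7 and 74.9 TPM in GBM IgG2a libraries tumor_369_a, tumor_76_a, tumor_77_a, tumor_78_a and tumor_79_a and at 72.4 to 226 TPM (median 126) in treated GBM. Among the treated libraries 6 of 7 exceeded the highest IgG2a value, and tumor_73_b, at 72.4 TPM, did not (0.79, SE 0.41, exact permutation p = 0.0152, adjusted p = 0.257). In spleen it was at 12.8 to 155 TPM (median 58.1) after IgG2a and at 29.4 to 59.3 TPM (median 45.9) after αPD1 + αGITR. Treated GBM exceeded treated spleen by 1.67 (SE 0.42, 3.17-fold, adjusted p = 0.0135), and the exact permutation p was 0.000155, the smallest that 7 against 8 libraries can give. After IgG2a the tissues differed by 0.66 (SE 0.77, adjusted p = 0.752), the smallest difference of the 10 genes there (0.35 without spleen_79_d to 0.93 without spleen_79_b), and 0 of 5 GBM libraries lay above every spleen.

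The constitutive counterparts allow each immunoproteasome subunit to be read against its own partner within a library. The log2 ratio of *Psmb8* to *Psmb5* was 1.65 ± 1.28 (SD, n = 7) in splenic IgG2a, 1.72 ± 0.49 (n = 8) in treated spleen, 1.91 ± 1.03 (n = 5) in GBM IgG2a and 2.67 ± 0.66 (n = 7) in treated GBM. Treated GBM exceeded treated spleen by 0.96, with 4 of 7 libraries above every spleen (exact permutation p = 0.0104, adjusted p = 0.0833 over 16 ratio tests). Leaving out spleen_72_b or tumor_72_a brought the adjusted p to 0.0466 and 0.0320, with differences of 1.09 and 1.14. With each of the 15 libraries left out in turn, the adjusted p ran from 0.0320 to 0.186. The ratio of *Psmb9* to *Psmb6* was higher by 2.29 in GBM than in spleen after IgG2a (exact permutation p = 0.0354, adjusted p = 0.189), of which tumor_369_a, with a log2 ratio of 5.88 against 0.01 to 0.84 in the other 4, carried a large part. The ratio of *Psmb10* to *Psmb7* differed by -0.59 to 0.75 between groups, with adjusted p of 0.457 or more. None of the 16 ratio tests had an adjusted p under 0.05, so a shift from constitutive to immunoproteasome subunits was not established in any comparison.

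**Figure D3:**
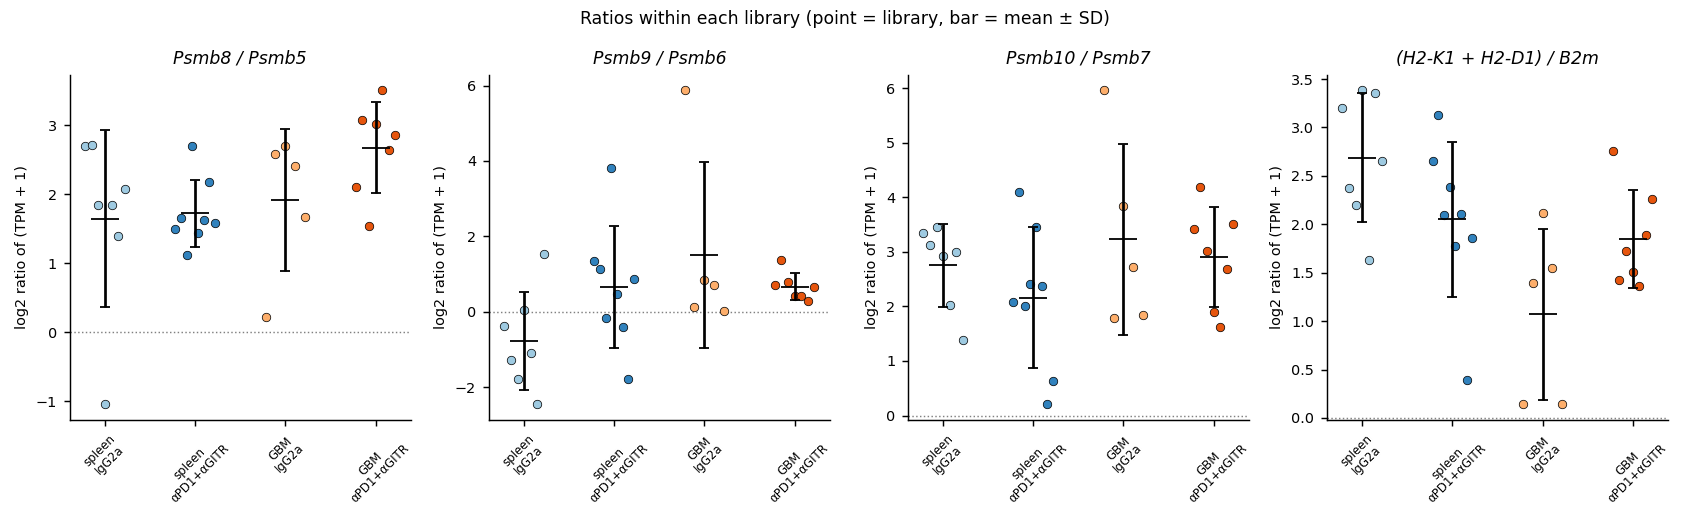
Log2 ratios within each library of *Psmb8* to *Psmb5*, *Psmb9* to *Psmb6*, *Psmb10* to *Psmb7* and summed heavy chains to *B2m*, by group. Points are libraries and bars are mean ± SD. The ratio of heavy chains to *B2m* lies lowest in GBM IgG2a, where 2 libraries are at 0.14, and 1 GBM IgG2a library stands apart at 5.88 in the ratio of *Psmb9* to *Psmb6*.

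*Nlrc5* (chr8:94434356-94527272, plus strand) was the least abundant member in both GBM groups by median. In GBM IgG2a this place was not settled: the medians of *Nlrc5* and *Psmb10* were 74.7 and 74.9 TPM, and *Psmb10* was higher in 2 of 5 libraries. *Nlrc5* was at 50.3, 77.9, 74.7, 47.2 and 155 TPM in GBM IgG2a libraries tumor_369_a, tumor_76_a, tumor_77_a, tumor_78_a and tumor_79_a and at 70.9 to 162 TPM (median 117) in treated GBM. In spleen it was at 4.13 to 71.8 TPM (median 41.4) after IgG2a and 7.54 to 119 TPM (median 46.0) after αPD1 + αGITR. The ranges overlapped in all comparisons. Treated GBM exceeded treated spleen by 1.44 (SE 0.53, 2.72-fold), with an adjusted p of 0.0562. It was 0.0320, 0.0435 and 0.0315 when spleen_70_c, spleen_73_a or spleen_74_a was left out. With each of the 15 libraries left out in turn, the adjusted p ran from 0.0315 to 0.107. Within the GBM the difference was 0.63 (SE 0.44, exact permutation p = 0.0808, adjusted p = 0.384).

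By median TPM the order within treated GBM was *H2-K1*, *H2-D1*, *B2m*, *Psmb8*, *Tapbp*, *Tap1*, *Tap2*, *Psmb9*, *Psmb10* and *Nlrc5*. From *H2-K1* down to *Psmb8* each gene exceeded the next in all 7 libraries, although the ranges of neighbours overlapped, and *Psmb9* exceeded *Psmb10* in 3 of 7. In GBM IgG2a the order of *B2m* and *H2-D1* was not settled, *B2m* being higher in 2 of 5 libraries, while *H2-D1* and *Psmb8* had ranges that did not overlap. In both splenic groups *H2-K1*, *H2-D1*, *B2m* and *Psmb8* led by median in the same order as in treated GBM, and *Psmb9* was last. The fourth place there was not settled, *Psmb8* exceeding *Tapbp* in 4 of 7 IgG2a and 4 of 8 treated spleens.

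Other genes of the pathway were read from lists drawn up with earlier results of these data known. Between treated GBM and treated spleen, where 15.8% of all features were higher at an adjusted p under 0.05, 1 of 3 proteasome activator genes was so, *Psme2*, by 1.92 (adjusted p = 0.0356), while *Psme1* differed by 1.55 (adjusted p = 0.05004). *Psme2* encodes a subunit of the interferon-inducible PA28 cap. Of 5 genes of peptide trimming and loading 1 was higher, *Pdia3*, which encodes the loading-complex partner of tapasin, by 1.503 (adjusted p = 0.0444), and *Calr* and *Canx*, chaperones of the heavy chain, differed by 1.44 and 1.32 with adjusted p of 0.0665 and 0.0895. None of the constitutive subunits had an adjusted p under 0.05, *Psmb5*, *Psmb6* and *Psmb7* differing by 1.37, 2.36 and 0.92 with adjusted p of 0.106, 0.0532 and 0.237. By the study's threshold, beside 33.9% of all features, 2 of the 3 constitutive subunits (*Psmb5* and *Psmb6*), 2 of the 3 activator genes and 3 of the 5 genes of trimming and loading were higher.

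Of 15 other class I and class I-like heavy chains, 11 passed the filter of a mean of 10 TPM in 1 of the groups, and 5 of these were higher in treated GBM than in treated spleen at an adjusted p under 0.05, beside the same 15.8%: *H2-T22* by 2.97 (adjusted p = 0.00642), *H2-T23* by 2.12 (0.0135), *H2-Q7* by 1.93 (0.0174), *H2-Q6* by 1.85 (0.0410) and *H2-T10* by 1.63 (0.0433). The last pair, and *Irf8* and *Jak1* below, were named after their values were seen. None was lower. *H2-T23* encodes Qa-1, a nonclassical molecule that presents leader peptides of classical heavy chains. *H2-T23* shares stretches of 50 bases with *H2-K1*, and *H2-Q7* with *H2-D1*, so reads may have been divided between them and the members. Of 14 genes of transcription and interferon signalling 10 were tested and 4 were higher, beside 15.8%, among them *Ifngr1*, a chain of the interferon-γ receptor, by 3.62 (adjusted p = 4.28e-05), *Stat2* by 2.44 (0.00193) and *Irf8* by 1.70 (0.0345). The excess of *Ifngr1* was without overlap, at 515 to 1102 TPM in treated GBM and 27.5 to 162 TPM in treated spleen. After IgG2a, *Ifngr1* was the only gene of these lists with an adjusted p under 0.05 between the tissues (3.29, adjusted p = 0.0310). By the study's threshold, which 7.63% of all features passed there, 4 of 11 genes of transcription and interferon signalling, 3 of 9 other heavy chains and 1 of 3 proteasome activator genes were higher. Among them *Stat2*, *H2-M3*, *Psme2*, *H2-T22*, *Irf1* and *H2-T23* had differences of 2.47, 2.63, 2.25, 2.26, 1.99 and 1.92 and adjusted p of 0.225 to 0.419. Within the GBM no gene of these lists had an adjusted p under 0.05 between αPD1 + αGITR and IgG2a, while 4 of 10 genes of transcription and interferon signalling, 1 of 5 of trimming and loading and 1 of 11 other heavy chains passed the study's threshold, beside 16.8%. *Irf2* had all 7 treated libraries above all 5 IgG2a libraries (2.15, SE 0.61, adjusted p = 0.0997), at 21.7 to 60.3 TPM against 1.24 to 15.7 TPM, and *Tapbpl*, a tapasin-related gene, differed by 1.98 (SE 0.76, adjusted p = 0.161). The other genes past it, *Irf8*, *Irf9*, *Jak1* and *H2-Q4*, differed by 1.77, 1.42, 1.07 and 1.38, with adjusted p of 0.193, 0.198, 0.203 and 0.216.

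The members varied together across the 27 libraries. Pearson correlations of log2(TPM + 1) between the 45 pairs of members ran from 0.54 (*Tap2* and *Nlrc5*) to 0.97 (*H2-K1* and *H2-D1*), with a median of 0.79, and after subtraction of group means from 0.22 to 0.94, with a median of 0.64. These are descriptions only, since all values of a library share its scaling. The genes most like the mean of the members among the 3624 other candidates were *H2-Q7* (r = 0.97), *H2-T23* (0.96), *Arl6ip1* (0.96), *Actg1* (0.96) and *Actb* (0.95), while the median over all candidates was 0.48. Of the stretches of 50 bases, 123 of *H2-D1* also occur in *H2-Q7* and 58 of *H2-K1* in *H2-T23*. Reads divided between these genes may thus enter the first 2 correlations, which was not tested. The mean of the members had r = 0.91 with the summed T cell genes and 0.92 with the summed Treg genes, 0.42 with the macrophage sum, -0.32 with the erythroid sum and -0.74 with the share of TPM that the 10 most abundant features took.

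The summed TPM of the 10 genes was 688 to 6714 in splenic IgG2a, 1097 to 6869 in treated spleen, 6402 to 10495 in GBM IgG2a and 7205 to 15302 in treated GBM. Divided by the summed T cell genes it was 3.65 to 8.74 (median 7.01), 2.92 to 9.78 (6.14), 4.63 to 10.5 (7.78) and 5.23 to 12.7 (6.79) in the same order, and all 4 groups overlapped. The tissue difference in TPM thus moved with that in T cell genes, and how much of it belongs to the members cannot be told apart from the share of T cell RNA in a library. Relative to the median of all features, the members' median in treated GBM against treated spleen was higher by 1.02 as deposited, 0.91 with TMM-type scaling, 1.44 with quantile normalization, 1.25 when rescaled without the 10 most abundant features and 1.21 when scaled to T cell genes. Within the GBM the same excess was 0.04, -0.09, 0.53, 0.10 and 0.11, the fourth value over 9 genes, since *H2-K1* was itself among the most abundant features removed. It was 0.30 as deposited without tumor_369_a and 0.34 with a pseudocount of 10.

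**Figure D4:**
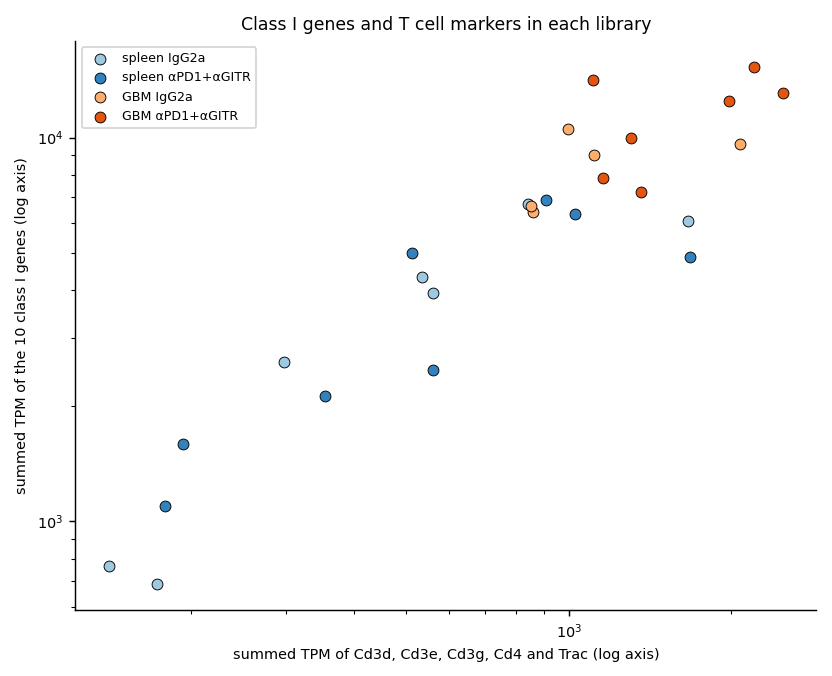
Summed TPM of the 10 class I genes against the summed TPM of *Cd3d*, *Cd3e*, *Cd3g*, *Cd4* and *Trac* in each of the 27 libraries, on log axes, with 1 point for each library. Libraries with low T cell sums, all splenic, also have the lowest class I sums, and the GBM libraries lie at the upper right.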

How the data were processed

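The authors made the libraries by the Smart-Seq2 protocol with Nextera XT and sequenced them on a NextSeq500. Per the labels and the study's methods, reads were converted with bcl2fastq and aligned to mm10 with TopHat2, and RSEM gave the TPM. Tool versions and the annotation are not given in the sources used here. The deposited values are a score, TPM plus 1, for 53801 features in 28 columns, of which 1 without a name was not used. Depth is unknown. After subtraction of 1, log2(TPM + 1) was fitted in R 4.3.3 with limma 3.58.1 (lmFit, eBayes with trend) on the 2 groups compared, for features with a mean TPM above 10 in either, and all 4 groups for the interaction. P-values are two-sided and adjusted by Benjamini-Hochberg over all features tested. Exact permutation tests compared mean log2 values over libraries. The tests were run on simulated data first. The unit found was TPM plus 1 where TPM had been planned, and the tests were kept.

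Members, lists and motifs were chosen with earlier results of these data known. Named beyond the members are up to 3 genes of a list and comparison past the study's threshold, by p, the 3 constitutive subunits, and the 5 genes most correlated with the members' mean. A few more, named after their values were seen, are said to be so in the text. Some genes of the lists are not reported here. Positions come from GENCODE vM21 (GRCm38) and promoters from RefSeq (GRCm38.p6). Alternatives were pseudocounts of 0.1 and 10, other filters and scalings, library weights, a covariate of detected features, all groups in 1 fit, averaged or blocked label numbers, and libraries left out. Library groups follow the labels, and p-values measure the spread between these libraries.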

Additional observations from a re-analysis of the deposited data

Results flagged for a closer look

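Single libraries were compared with the rest of their group by the gap to the nearest library over the range of the group. Of 56 sets of values, 3 had a library beyond the 95% limit of Dixon's test, where chance alone gives about 1 in 20. In splenic IgG2a library spleen_79_a the log2 ratio of *Psmb8* to *Psmb5* was -1.05, against 1.396 to 2.71 in the other 6. In treated splenic library spleen_72_c *Psmb9* was at 1.21 on the log2(TPM + 1) scale, against 3.80 to 6.08 in the other 7. In GBM IgG2a library tumor_369_a the log2 ratio of *Psmb9* to *Psmb6* was 5.88, against 0.01 to 0.84 in the other 4. The cause of these values was not tested.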

How the results depend on the processing

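The depth of the libraries is unknown, and groups of 5 to 8 libraries limit what can be detected. Scaling to T cell genes and leaving out 2 GBM or 4 splenic libraries together were chosen after the data were seen. Among values of single members under other settings than leaving out 1 library, 602 kept their direction and side of the threshold, 48 reversed, 33 were no longer past it and 6 came past it. Most of these values had no call to lose. The 33 all came from the 9 members called between treated GBM and treated spleen, each tried under 14 alternatives. Causes were not tested.

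Counts of members called. For treated against IgG2a GBM the count past the study's threshold, 2, was 1 with a pseudocount of 10, without the 10 most abundant features and with the covariate, and 0 with TMM-type scaling, quantile normalization, library weights, all 4 groups in 1 fit, averaged numbers, T cell scaling and without tumor_369_a and tumor_79_a (1 to 3 leaving out 1 library), where 3.11% to 18.4% of all features passed it. Library weights gave 1 at an adjusted p under 0.05, beside 1.71% of features. For the tissues after IgG2a, that adjusted count, 0, was 1 with quantile normalization, library weights and all 4 groups in 1 fit, beside 0.786%, 2.91% and 1.63% (0 to 1 leaving out 1 library), and the count of 3 past the study's threshold was 5 with all 4 groups and 1 with averaged numbers and T cell scaling, beside 11.5%, 4.82% and 1.61% (1 to 6 leaving out 1 library). For the tissues after treatment, the count of 9 was 3 with TMM-type scaling (6 past the study's threshold, of 10, beside 12.1%), 2 with no filter, 4 with averaged numbers and 0 with T cell scaling (0), and 8 to 10 leaving out 1 library, beside 7.37% to 23.7%. For the interaction, the count of 0 past the study's threshold was 1 with library weights and 2 with averaged numbers and without the 4 splenic libraries, beside 8.46%, 7.33% and 9.89%.

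Reversed log2 differences. With TMM-type scaling in GBM, *H2-K1* was -0.21, *H2-D1* -0.00031, *Tap1* -0.077, *Psmb9* -0.24 and *Nlrc5* -0.065, in spleen *H2-K1* -0.11, *H2-D1* -0.0098 and *Psmb9* -0.13, and in the interaction *H2-K1* -0.12, *H2-D1* -0.0078, *Psmb9* -0.12 and *Nlrc5* -0.35. With T cell scaling in GBM, *H2-K1* was -0.022 and *Psmb9* -0.045, in spleen *H2-K1* -0.15, *H2-D1* -0.052 and *Psmb9* -0.17, between tissues after IgG2a *H2-K1* -0.11, *Tap2* -0.36, *Tapbp* -0.37, *Psmb10* -0.65 and *Nlrc5* -0.014, after treatment *Nlrc5* -0.13, and in the interaction *Nlrc5* -0.12. *B2m* in GBM was 0.16 with library weights and 0.34 without tumor_369_a and tumor_79_a (-0.52 to 0.0038 leaving out 1 library). In spleen the reversed values of *H2-K1* were -0.024 with quantile normalization, -0.018 without the most abundant features, -0.21 with weights, -0.19 averaged and -0.16 without the 4 libraries, and of *Psmb9* -0.027, -0.067, -0.17, -0.24 and -0.26. Under the last 3 settings *H2-D1* was -0.43, -0.22 and -0.29, *Tapbp* -0.18, -0.054 and -0.058, and *Psmb8* -0.68, -0.12 and -0.40. With the covariate *Tap1* was 0.31 and *Tap2* 0.10. *Psmb10* between tissues after IgG2a was -0.00046 averaged. Leaving out 1 library in spleen gave *H2-K1* -0.17 to 0.34, *H2-D1* -0.19 to 0.45, *Tap1* -0.36 to 0.30, *Tap2* -0.39 to 0.25, *Psmb8* -0.40 to 0.70, *Psmb9* -0.39 to 0.54 and *Psmb10* -0.53 to 0.055, and in the interaction *Psmb9* -0.081 to 0.84 and *Nlrc5* -0.16 to 0.60.

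Ratios. *Psmb9* to *Psmb6* between treated tissues was -0.45 with a pseudocount of 0.1 (-0.34 to 0.46 leaving out 1 library). With a pseudocount of 10, *Psmb10* to *Psmb7* in GBM was 0.23, *Psmb8* to *Psmb5* in spleen -0.040 and between treated tissues 1.10 (now past the threshold), and heavy chains to *B2m* after IgG2a -1.55 (also past it). Averaged, *Psmb8* to *Psmb5* was -0.56 in spleen and -0.32 between tissues after IgG2a, and heavy chains to *B2m* 0.13 between treated tissues. Leaving out 1 library gave *Psmb8* to *Psmb5* -0.37 to 0.25 in spleen, -0.18 to 0.69 and 0.82 to 1.14 between tissues after IgG2a and treatment, *Psmb10* to *Psmb7* -0.68 to 0.36 in GBM and -0.21 to 0.84 between tissues after IgG2a, *Psmb9* to *Psmb6* -1.22 to 0.24 in GBM, and heavy chains to *B2m* -1.88 to -1.39 after IgG2a.

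With the label number as a replicate block, 1 member instead of 3 passed the study's threshold between tissues after IgG2a, beside 6.21% of features, and 6 instead of 9 had an adjusted p under 0.05 after treatment, beside 6.09%. Libraries of both tissues with the same number had correlations of their deviations from group means of -0.146 to 0.137. Those with unlike numbers had correlations of -0.188 to 0.227. The numbers were not taken as pairs in the main tests, and these correlations cannot show whether a number stands for a mouse.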
